A study of Mus musculus with 12 samples.

Results

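The LPS response of Tmprss6 knockout livers was compared with that of iron-deficient wild-type livers, gene by gene, and only the difference between the 2 responses was studied. All 12 livers of the series entered the comparison, 3 in each of 4 groups. For every gene the LPS response of iron-deficient (IDA) livers, LPS-treated minus untreated, was subtracted from the LPS response of knockout (KO) livers, and this interaction is given as a log2 ratio. A negative interaction means that LPS moved the gene less far upwards, or further downwards, in KO than in IDA livers, and a positive one the opposite. Gene levels were read on Illumina BeadChips, which measure RNA as the brightness of bead-bound probes. KO mice lacked Tmprss6 and were kept on an iron-replete diet, and their wild-type littermates were kept on an iron-deficient diet, both for 3 weeks from the age of 4 weeks. By their strain label all mice were of mixed 129/Ola and C57BL/6 ancestry. At the age of 7 weeks they received 0.1 mg/kg LPS from Escherichia coli or saline (called untreated, UT), and whole livers were taken 6 h later. Diet changed along with genotype, so that the part of each in any KO against IDA difference cannot be told apart. Wild-type mice on the iron-replete diet were not part of the comparison.

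Tmprss6 encodes matriptase-2, a protease on the surface of hepatocytes that restrains BMP-SMAD signalling and through it hepcidin, the hormone that blocks iron export from cells. Mice without it have high hepcidin and iron-deficiency anaemia. LPS, a cell wall component of Gram-negative bacteria, is sensed by Toll-like receptor 4 with its co-receptor CD14. In liver it sets off NF-kB and interferon signalling in Kupffer cells and endothelium within hours, the acute-phase response of hepatocytes, and a fall of many transcripts for bile acid, drug and glucose metabolism.

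Detected probes (detection p under 0.01) numbered 12641 to 14423 per liver out of 45281, at a median raw signal of 129.7 to 151. Tmprss6 was lower in KO than in IDA livers without LPS (log2 ratio −2.38, limma, adjusted p = 0.00209) and after it (−2.02, adjusted p = 0.000394), and its interaction was 0.36 (SE 0.38, adjusted p = 0.601); where its probe lies relative to the deleted part was not checked. Of 19 measured hepatocyte markers 17 were detected in all 12 livers, and 0 had an interaction call in limma (1 at an unadjusted p under 0.05). Xist, the RNA of the inactive X chromosome, was strong (log2 intensity 11.84 to 12.05) in 1 untreated IDA liver (IDA UT 1) and 2 untreated KO livers (KO UT 1 and 2), where the Y-linked Eif2s3y was at 4.80 to 4.94, and Xist was at 4.80 to 6.73 in the other livers. The labels give no sex, and the methods state male KO mice. Results were therefore also computed without these livers, a setting chosen after the values were seen, which leaves 1 untreated KO and 2 untreated IDA livers.

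LPS responses were smaller in KO livers in most genes where they differed. Of 11566 features tested (9307 named genes and 2259 probes without a gene symbol), 632 (5.46%) had an interaction call, that is an adjusted p under 0.05 (limma, Benjamini-Hochberg) and an absolute log2 ratio over 1. The interaction was positive in 297 (2.57%) and negative in 335 (2.90%). With the authors' own normalized intensities the split was 115 positive and 212 negative, and without background correction 118 and 208. The median interaction over all features was 0.03. By the same thresholds, 1854 features (16.0%) responded to LPS in IDA livers and 602 (5.20%) in KO livers. In 92.1% of the 632 calls the response was smaller in KO than in IDA livers. Features were also called over both genotypes together, with both thresholds applied to the sum of the 2 responses. A log2 ratio over 1 is a milder cut there than for either response alone. Among the 1557 features (13.5%) called higher in this way, the median response was 1.13 in IDA livers (quartiles 0.82 and 1.74) and 0.67 in KO livers (0.43 and 1.07). Among the 1692 (14.6%) called lower it was −1.03 in IDA and −0.52 in KO livers.

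The 632 features were sorted by whether each response passed an adjusted p of 0.05 (limma), which 47.9% of all features did in IDA livers (21.9% upwards and 26.0% downwards) and 18.8% in KO livers (10.2% and 8.57%). In the gene lists described below, a member is said to rise or fall by that same rule. The largest class, with 357 features (56.5%), passed in IDA livers and not in KO livers. In 184 of them LPS raised the level in IDA livers (median response 1.5, against −0.05 in KO livers), and in 173 it lowered it (−1.40 against −0.15). A response that did not pass is not shown to be absent. Blunted responses, which passed in both genotypes with the same sign and were smaller in KO livers, made up 217 features (34.3%). Their median rise was 2.88 in IDA and 1.31 in KO livers over 111 features, and their median fall −2.20 and −0.82 over 106. Another 22 features (3.48%) passed in both with opposite signs, 32 (5.06%) passed in KO livers only, 3 passed in neither, and 1, Prtn3, passed in both with the same sign and the larger response in KO livers.

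**Figure D1:**
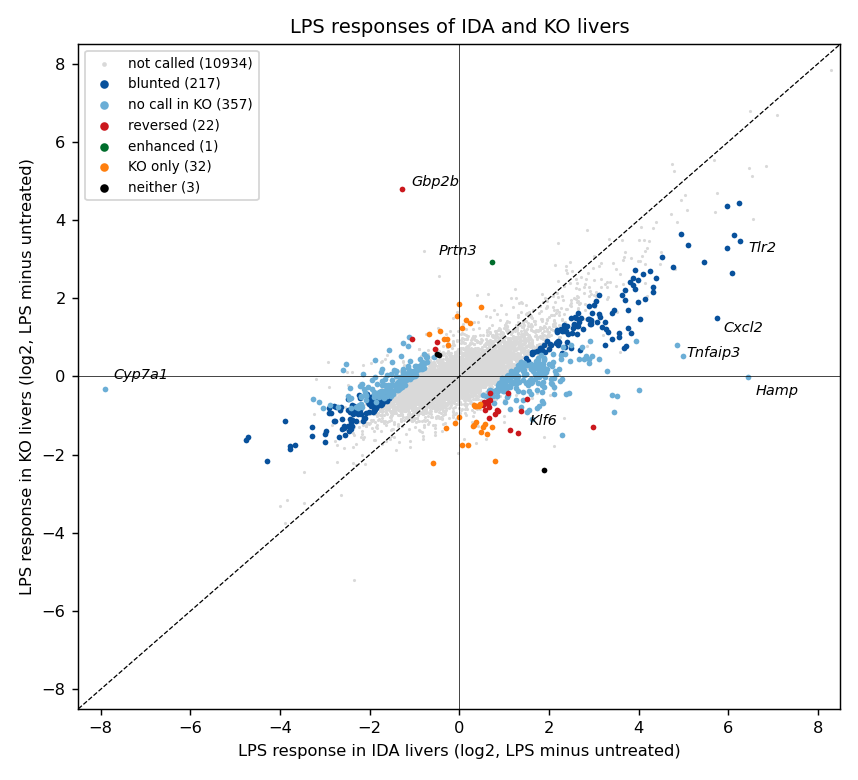
LPS response (log2, LPS-treated minus untreated) of 11566 features in IDA livers (x axis) and KO livers (y axis), each the difference of 2 means of 3 livers; colours give the class of the 632 features with an interaction call and the dashed line marks equal responses. Blunted features and those that passed in IDA livers only lie between the dashed line and the horizontal zero line or close to that line, with Gbp2b far above and Hamp and Cyp7a1 at the horizontal zero line.

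An interaction can come from livers after LPS, from untreated livers, or from both. KO and IDA livers differed at an adjusted p under 0.05 (limma) in 29.8% of all features after LPS and in 2.51% without it. Of the 632 called features 519 differed after LPS only, 59 in untreated livers only, 25 in both and 29 in neither. The count in untreated livers only depended on single livers, at 18 with KO UT 2 left out, 20 with IDA UT 3, 22 with IDA UT 2, 28 with KO UT 3 and 39 with KO LPS 2 left out. The count in both ranged from 7 (KO UT 2 or IDA UT 3 left out) to 56 (IDA UT 1 left out). By direction, 7 of the 297 positive interactions passed in untreated livers only, against 52 of the 335 negative ones, which include Hamp and several immediate-early genes described below. A difference that missed the threshold after LPS is not shown to be absent, Hamp being at 1.99 (adjusted p = 0.054) there. Leaving out the 3 Xist-positive livers kept the sign of all 632 interactions and 348 of the calls, and the median size was 1.34 with and 1.40 without these livers. Of the 59 features that differed in untreated livers only, 39 kept their call.

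**Figure D2:**
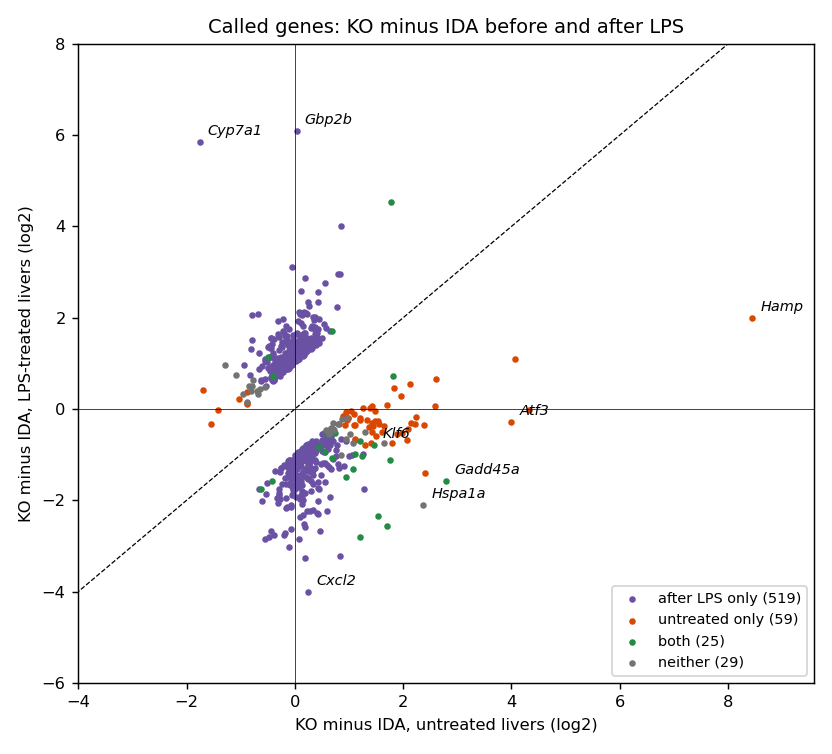
KO minus IDA difference (log2) of the 632 features with an interaction call in untreated livers (x axis) and after LPS (y axis), coloured by which of both differences passed an adjusted p of 0.05. Most points stand near x = 0, with the 59 untreated-only features along y = 0, most of them on the right, and Hamp at 8.46 on the x axis.

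Among the gene lists examined, NF-kB subunits and IkB proteins had the highest share of negative interaction calls. NF-kB proteins are kept in the cytoplasm by IkB proteins, many of which NF-kB induces in turn as a brake. Of 12 measured genes for NF-kB subunits and IkB proteins, 7 had a negative interaction call (Bcl3, Nfkb2, Nfkbia, Nfkbie, Nfkbiz, Rela and Relb) and 0 a positive one (limma, also at an unadjusted p under 0.05), with a median interaction of −1.30 against 0.03 over all features. In IDA livers 10 of the 12 rose with LPS and in KO livers 3. The count was 6 without the Xist-positive livers and 7 or 8 without any 1 liver.

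Nfkbiz, encoding the nuclear IkB-zeta that works as a co-activator, stood at log2 intensities of 9.91, 9.32 and 9.33 in untreated IDA livers and at 12.01, 12.75 and 12.50 after LPS. Its untreated KO livers were at 9.37, 9.24 and 9.38 and the LPS-treated ones at 9.77, 9.65 and 9.58. All LPS-treated IDA livers thus lay above every other liver, while treated KO livers lay within the range of the untreated IDA livers. The response was 2.90 (SE 0.20) in IDA and 0.34 (SE 0.20) in KO livers, an interaction of −2.56 (SE 0.28, limma adjusted p = 0.000636). Nfkbia, the classical IkB-alpha, had a response of 1.90 in IDA livers and close to 0 in KO livers (interaction −1.91, SE 0.29, adjusted p = 0.00292). Relb, the subunit of the slower non-canonical arm, was not detected in any untreated liver and reached 8.97, 9.36 and 8.83 in treated IDA against 6.07, 6.48 and 6.74 in treated KO livers, the last 2 detected. It was at least 5.98-fold lower in KO than in IDA livers after LPS (interaction −2.56, adjusted p = 0.000656, or −2.40 by the bound). Such bounds, written "at least", put each liver without a detected signal at the dimmest probe that was detected on its array, or at its own value if brighter.

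Genes that NF-kB induces and that end its signal or let leukocytes adhere were called in part. Of 17 measured, 7 had a negative interaction call (Cd40, Gadd45b, Icam1, Ier3, Tnfaip2, Tnfaip3 and Zc3h12a) and 1, Vcam1, a positive one, at a median of −1.0. Tnfaip3 encodes A20, a ubiquitin editor that switches off signalling from Toll-like and TNF receptors. Its level was 6.71, 5.50 and 6.17 in untreated and 10.71, 11.36 and 10.88 in LPS-treated IDA livers, against 6.98, 7.02 and 6.87 and then 7.57, 8.12 and 7.60 in KO livers. Treated KO livers lay above untreated ones but well below treated IDA livers. The response was 4.86 (SE 0.27) in IDA and 0.81 (SE 0.27, adjusted p = 0.06) in KO livers, an interaction of −4.05 (SE 0.39, limma adjusted p = 0.000593) or −3.62 with undetected livers at the lowest detected level of their array. Icam1, the receptor for leukocyte integrins and one of the genes given after their values were seen, rose by 3.69 in IDA and by 1.95 in KO livers (interaction −1.74, adjusted p = 0.000656). Vcam1, another adhesion molecule, went the other way, with −0.55 in IDA and 0.70 in KO livers (interaction 1.25, adjusted p = 0.0109).

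In the list of LPS sensing and Toll-like receptor adaptor genes, the receptors Tlr2 and Cd14 had large negative interactions. Of 22 measured genes of this list 6 had a negative interaction call (Cd14, Irak2, Irak3, Map3k8, Myd88 and Tlr2) and 1, Tlr5, a positive one, with a median of −0.23. Without the Xist-positive livers 3 negative calls were left, and likewise without KO LPS 1. Tlr2, the receptor for bacterial lipoproteins, rose from 7.11, 7.05 and 6.45 to 12.89, 13.26 and 13.21 in IDA livers, and from 6.68, 7.37 and 7.15 to 9.98, 10.93 and 10.70 in KO livers. The treated groups did not overlap. The response was 76.3-fold in IDA livers and 11.1-fold in KO livers (interaction −2.78, SE 0.37, limma adjusted p = 0.00171). Cd14 rose by 6.13 in IDA and 3.62 in KO livers (interaction −2.51, SE 0.54, adjusted p = 0.0149). Irak2, a kinase downstream of the adaptor MyD88, rose by 2.07 in IDA livers and was at −0.20 in KO livers (adjusted p of the interaction 0.0014; other probes gave −2.16, called, and −1.29, not called), and its untreated level was already higher in KO livers (1.25, adjusted p = 0.012).

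Promoters of Tnfaip3, Tlr2 and 2 chemokines described next are shown as examples. Each of these genes rose in IDA livers and had a negative interaction. Genes and motif were picked by hand, and only promoters that held a match are shown. Capitals mark matches to the consensus kB site, the DNA sequence bound by NF-kB, searched on both strands. The sequences are from RefSeq on GRCm38.p6, 5′ to 3′, from 250 bases before to 50 after the annotated start. They are Tnfaip3 (chr10:19015361-19015660, minus strand), Tlr2 (chr3:83841559-83841858, minus strand), Cxcl1 (chr5:90890995-90891294, plus strand) and Cxcl2 (chr5:90903649-90903948, plus strand).
Tnfaip3: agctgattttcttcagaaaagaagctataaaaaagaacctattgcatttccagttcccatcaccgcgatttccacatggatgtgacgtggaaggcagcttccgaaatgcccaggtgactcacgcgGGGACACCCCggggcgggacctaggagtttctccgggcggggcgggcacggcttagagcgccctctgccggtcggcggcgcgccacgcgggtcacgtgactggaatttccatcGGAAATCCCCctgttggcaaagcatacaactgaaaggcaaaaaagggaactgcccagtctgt
Tlr2: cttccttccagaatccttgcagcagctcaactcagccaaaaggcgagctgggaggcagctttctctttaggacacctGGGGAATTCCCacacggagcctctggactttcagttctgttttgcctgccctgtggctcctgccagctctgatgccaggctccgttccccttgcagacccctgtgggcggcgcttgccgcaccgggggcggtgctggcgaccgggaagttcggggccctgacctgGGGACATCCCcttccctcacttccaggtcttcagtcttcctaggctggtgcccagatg
Cxcl1: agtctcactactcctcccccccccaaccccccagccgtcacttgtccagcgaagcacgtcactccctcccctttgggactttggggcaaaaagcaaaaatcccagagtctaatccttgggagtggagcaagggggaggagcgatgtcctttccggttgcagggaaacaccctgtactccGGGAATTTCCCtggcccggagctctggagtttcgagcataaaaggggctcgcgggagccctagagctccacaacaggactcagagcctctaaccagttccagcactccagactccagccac
Cxcl2: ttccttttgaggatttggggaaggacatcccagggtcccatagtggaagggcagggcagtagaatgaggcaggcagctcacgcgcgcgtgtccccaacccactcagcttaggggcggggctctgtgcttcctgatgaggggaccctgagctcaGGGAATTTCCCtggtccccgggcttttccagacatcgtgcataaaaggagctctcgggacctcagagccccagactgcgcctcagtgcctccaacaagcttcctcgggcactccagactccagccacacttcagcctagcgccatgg
In Cxcl1 and Cxcl2, neighbours on chromosome 5, the same stretch of letters lies 71 and 97 bases before the start. In the whole set of genes that rose in IDA livers with a smaller or no called response in KO livers, 210 of 258 named genes had a promoter in the table, and 46 of their 277 promoters (16.6%) held such a match. The share was 8.46% over all 32851 promoters, 10.2% over those of the tested genes, and 8.79% over 239 promoters of genes that fell in IDA livers with a smaller or no called response in KO livers. A match is a description of the letters and not a measured binding site. Promoters of genes that rose in IDA livers without an interaction call were not counted apart, for this or the motifs below. These shares therefore cannot tell genes with a negative interaction from other genes that rose with LPS.

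**Figure D3:**
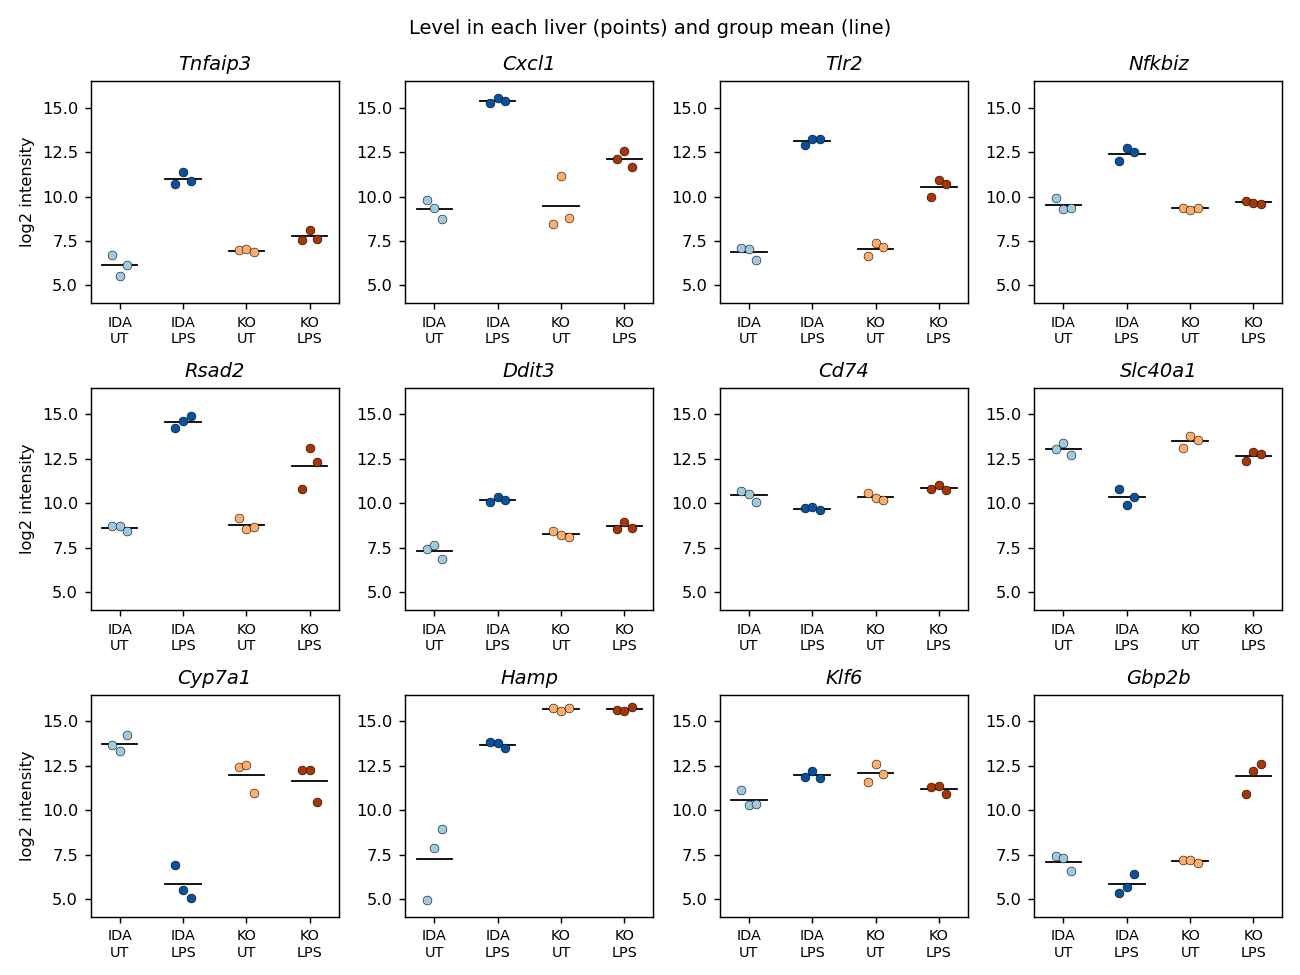
log2 intensity of 12 genes with an interaction call in each of the 12 livers (points; 3 per group) with the group means (lines), for untreated (UT) and LPS-treated IDA and KO livers. The treated IDA livers lie above all other 9 for Tnfaip3, Cxcl1, Tlr2, Nfkbiz, Rsad2 and Ddit3. They lie below them for Cd74, Slc40a1, Cyp7a1 and, undetected, Gbp2b. The treated KO livers lie above all others for Gbp2b and Cd74. The untreated IDA livers lie below all others most clearly for Hamp.

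Cxcl1 and Cxcl2, chemokines that attract neutrophils, had large negative interactions, while most chemokines rose in both genotypes. In KO as in IDA livers 14 of the 20 measured chemokines rose. Interaction calls were negative for 5 (Ccl3, Ccl4, Cxcl1, Cxcl10 and Cxcl2) and positive for 1, Cxcl12, with a list median of −0.22. For Ccl4 KO livers were higher without LPS (1.79, limma adjusted p = 0.0246) and did not pass after it (−0.74, adjusted p = 0.134). Its interaction was −2.53, or −1.19 and not called with undetected livers at the lowest detected level. Another Ccl4 probe gave −0.98, which was not called. Cxcl1, a ligand of the neutrophil receptor CXCR2, went from 9.78, 9.36 and 8.72 to 15.24, 15.53 and 15.35 in IDA livers, and from 8.47, 11.17 and 8.81 to 12.11, 12.57 and 11.66 in KO livers. Every treated KO liver lay above every untreated liver and below every treated IDA liver. The rise was 67.9-fold in IDA and 6.20-fold in KO livers (interaction −3.45, SE 0.80, limma adjusted p = 0.02). Cxcl2, another ligand of the same receptor, was not detected in any untreated liver, at 10.22, 11.13 and 10.05 in treated IDA livers, and at 7.30, 6.56 and 5.54 in treated KO livers, the first 2 detected. After LPS it was at least 13.1-fold lower in KO livers (interaction −4.25, SE 0.54, adjusted p = 0.00137, or −3.53 with undetected livers at the lowest detected level). Cxcl12, which holds leukocytes and progenitor cells in their niche, fell from 13.75 to 13.78 down to 12.29 to 12.64 in IDA livers and had 13.45 to 13.56 and then 13.21 to 13.30 in KO livers (interaction 1.10, SE 0.15, adjusted p = 0.00185), but 2 other probes of the gene gave 0.88 and 0.73, which did not pass both thresholds.

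Of 9 measured neutrophil markers, of 20 listed, 2 had a negative interaction call (Cxcr2 and Mmp9) and 1, Prtn3, a positive one, and the negative count ranged from 1 (without KO LPS 1) to 5 when any 1 liver was left out. Their summed linear intensity was 19566 to 23269 in treated IDA livers and 6697 to 13281 in treated KO livers, against 889 to 2385 and 1204 to 1645 in the untreated groups. This sum is weighted to bright genes and is no measure of the list as a whole. The list's median response was 1.84 in IDA and 1.65 in KO livers. Its median interaction was −1.15, or −0.42 with undetected livers at the lowest detected level. Ly6g, Mpo and Elane were not among the measured genes. S100a8 and S100a9, calcium-binding proteins packed in neutrophils, rose by 4.48 and 4.81 in IDA and by 2.88 and 2.75 in KO livers, but their interactions did not pass. Cxcr2, the chemokine receptor itself, was detected only in treated IDA livers (6.84, 6.68 and 7.11, against 5.60, 5.87 and 5.33 in treated KO livers; interaction −1.15, limma adjusted p = 0.00765, or −0.42 with undetected livers at the lowest detected level, where it was not called). Fewer cells of a type and less RNA per cell cannot be told apart in whole liver, and the part of neutrophils in the chemokine result was not tested. Prtn3, encoding proteinase 3 of neutrophil granules and precursors, was the single gene with a call that passed in both genotypes with the same sign and the larger response in KO livers. It was detected in none of 9 other livers and in all treated KO livers, at 7.83, 8.06 and 8.0, where it was at least 2.56-fold higher than in treated IDA livers. Its interaction of 2.18 (adjusted p = 0.000593) and its response in IDA livers rest on undetected values, and once these were raised to the dimmest detected level the interaction was 1.54.

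Cytokine genes of the interleukin-1 and TNF families fell short in KO livers in 4 of 16 measured members (Il1b, Il1r2, Il1rn and Tnf; median interaction −0.47), and without IDA LPS 3 in 2. Il1rn, the natural antagonist of the interleukin-1 receptor, stood at 11.55, 12.37 and 12.10 in treated IDA and at 9.67, 10.08 and 10.57 in treated KO livers, which did not overlap, with responses of 4.33 and 2.30 (interaction −2.03, SE 0.47, limma adjusted p = 0.02). Il1r2, a decoy receptor for interleukin-1, was detected only in treated IDA livers, where it was at least 2.87-fold higher than in treated KO livers (interaction −2.45, adjusted p = 0.000593, or −1.34 with undetected livers at the lowest detected level). Il1b, interleukin-1 beta itself, rose by 4.77 in IDA and 2.80 in KO livers (interaction −1.97, adjusted p = 0.0244), a call that 4 of the 12 omissions of 1 liver ended. Both the cytokine and its antagonists thus had negative interactions. Of 18 genes of interleukin-6 and JAK-STAT signalling 2 had a call, both negative. Cish, a STAT5-induced inhibitor of cytokine receptors, went from 8.82, 8.43 and 8.19 to 11.83, 12.27 and 11.88 in IDA livers and from 10.24, 9.62 and 9.18 to 8.70, 9.38 and 9.46 in KO livers. Untreated KO livers lay above untreated IDA livers, and treated KO livers well below treated IDA livers (interaction −4.01, SE 0.39, adjusted p = 0.000593). The other, Pim1, was detected only in 2 treated IDA livers (interaction −1.71, or −0.73 with undetected livers at the lowest detected level).

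Acute-phase proteins and MHC class I genes rose in both genotypes with few or no interaction calls. Of 24 measured acute-phase proteins 19 rose in IDA and 17 in KO livers, with list medians of 1.61 and 1.13. Interaction calls went to 2 (8.33%, against 5.46% of all features), Hamp and the metalloreductase Steap4, both negative. MHC class I and immunoproteasome genes had 0 calls among 18 in limma (median −0.33), and 16 rose in each genotype. At an adjusted p under 0.05 alone, which 5.46% of all features passed upwards and 5.49% downwards, the class I list also had 0 calls, and at an unadjusted p under 0.05 it had 4, all negative.

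Most interferon-stimulated genes rose in both genotypes, and a minority had a negative interaction call. Of 31 measured type I genes 30 rose in IDA and 27 in KO livers, with median responses of 3.04 and 1.78, and 8 had a negative interaction call (Ifih1, Isg20, Mx1, Oas2, Oasl2, Rsad2, Samhd1 and Trim30a). The count was 2 without the Xist-positive livers, where the list's median was −0.88 against −0.93 with them, and 5 without IDA LPS 3. Rsad2, the antiviral enzyme viperin, rose from 8.44 to 8.73 up to 14.25, 14.61 and 14.92 in IDA livers and from 8.56 to 9.16 up to 10.83, 13.12 and 12.30 in KO livers. The treated groups did not overlap, and the KO livers spread over a wider range (interaction −2.68, SE 0.62, limma adjusted p = 0.0202); the call was lost without IDA LPS 3 and without the Xist-positive livers (−2.60, adjusted p = 0.131). Samhd1, a nucleotide hydrolase that starves viruses, rose by 3.76 and 1.69 (interaction −2.06, SE 0.31, adjusted p = 0.0031). In a list of GTPases induced by interferon-gamma and IRF1, 14 of 14 measured genes rose in IDA and 13 in KO livers. Gbp5 and Tgtp1 had negative calls. Gbp2b, described below, is not in that list. Gbp5, which helps to assemble inflammasomes, was not detected without LPS and was at least 3.96-fold lower in treated KO than in treated IDA livers (interaction −2.14, SE 0.22, adjusted p = 0.000593, or −1.80 with undetected livers at the lowest detected level).

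Gbp2b, a guanylate-binding protein of the same family, had the opposite pattern and the largest reversal of all genes with a call in both responses. Its log2 intensity was 7.44, 7.28 and 6.57 in untreated IDA livers and 5.35, 5.70 and 6.41 after LPS, when it was not detected in any of them. In KO livers it was 7.17, 7.19 and 7.01 without and 10.88, 12.22 and 12.61 with LPS. Every treated KO liver exceeded every other liver. The rise in KO livers was 27.5-fold, and after LPS the gene was at least 39.4-fold higher in KO than in IDA livers (interaction 6.06, SE 0.57, limma adjusted p = 0.000593). The response in IDA livers was −1.28 (limma adjusted p = 0.021) and rests on values that were undetected after LPS. By the bound the fall was at least 1.41-fold, to which that p-value does not apply, and the interaction was 5.27. The gene belongs to a family of close copies, and whether its probe reads only Gbp2b was not checked. The promoters of Rsad2 and Gbp2b are shown because both hold the letters of the interferon response element, GAAA, any 2 bases and GAAA on either strand (capitals) and their interactions had opposite signs. They are from RefSeq on GRCm38.p6, Rsad2 from chr12:26456403-26456702, minus strand, and Gbp2b from chr3:142594597-142594896, plus strand.
Rsad2: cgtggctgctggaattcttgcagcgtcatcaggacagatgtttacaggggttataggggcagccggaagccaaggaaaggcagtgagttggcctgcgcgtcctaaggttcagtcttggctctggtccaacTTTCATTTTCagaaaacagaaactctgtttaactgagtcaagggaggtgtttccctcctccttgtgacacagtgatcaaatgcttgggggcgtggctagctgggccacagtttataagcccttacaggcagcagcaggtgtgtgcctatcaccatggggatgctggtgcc
Gbp2b: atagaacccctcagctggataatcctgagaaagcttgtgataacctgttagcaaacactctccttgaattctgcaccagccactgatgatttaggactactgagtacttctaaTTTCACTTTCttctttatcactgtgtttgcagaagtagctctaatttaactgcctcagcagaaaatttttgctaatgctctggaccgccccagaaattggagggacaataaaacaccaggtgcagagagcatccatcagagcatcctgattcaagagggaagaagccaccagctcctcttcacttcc
The match starts 120 bases before the start of Rsad2 and 137 before that of Gbp2b. Such letters occur in 3.44% of all promoters and in 3.28% of those of the tested genes. The share was 7.58% for the genes that rose in IDA livers with a smaller or no called response in KO livers.

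**Figure D4:**
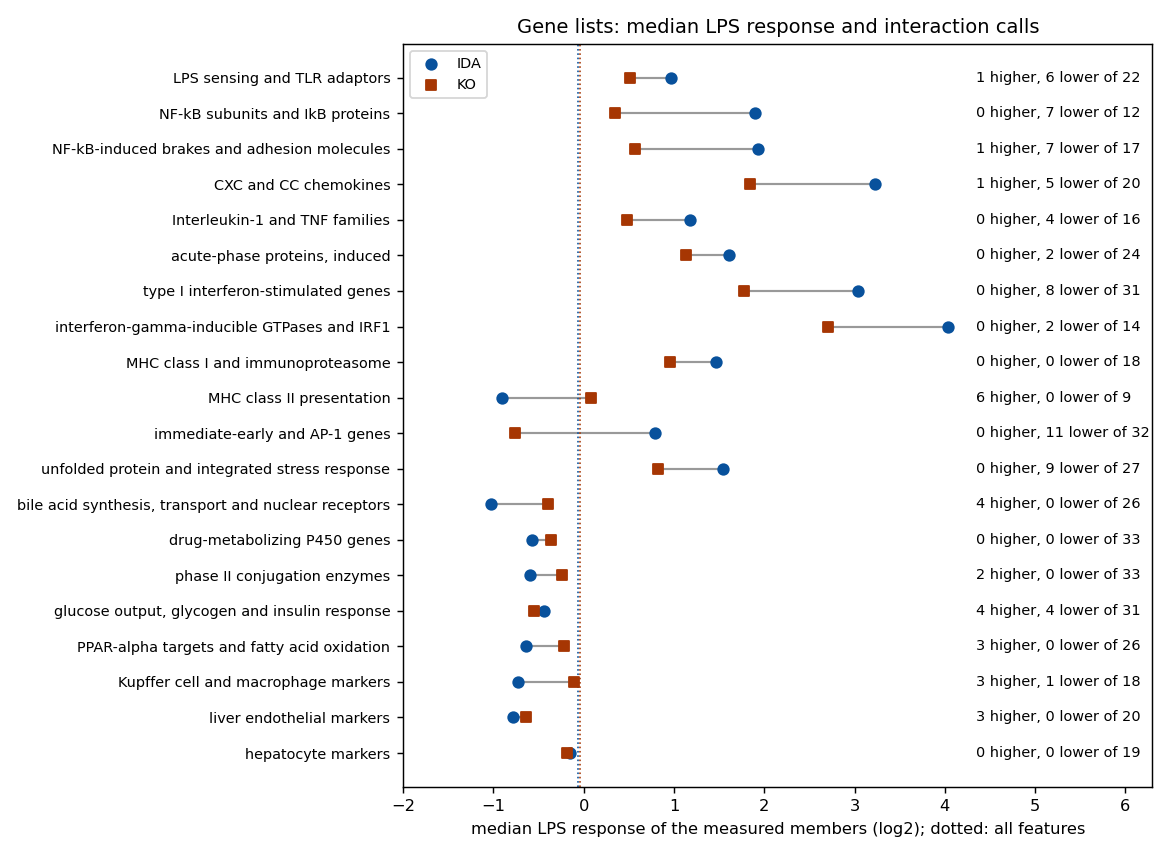
Median LPS response (log2) of the measured members of 20 gene lists in IDA livers (circles) and KO livers (squares), with the dotted lines at the medians over all features (−0.06 and −0.04) and, at the right, the number of members with a positive (higher) or negative (lower) interaction call. Medians of 11 lists lie above 0 in IDA livers and 10 of these also in KO livers, the exception being the immediate-early genes.

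MHC class II genes were the list with the most positive calls. These genes present antigen to helper T cells and mark Kupffer cells, dendritic cells and B cells. Of 9 measured, 6 had a positive interaction call (Cd74, H2-Aa, H2-Ab1, H2-DMa, H2-DMb1 and H2-Eb1) and 0 a negative one (limma, also at an unadjusted p under 0.05), at a median of 1.15. In IDA livers 7 fell with LPS at a list median of −0.91, and in KO livers no member passed, at a median of 0.08. Cd74, the invariant chain that escorts class II molecules, was at 10.72, 10.55 and 10.07 without and 9.73, 9.78 and 9.61 with LPS in IDA livers, and at 10.56, 10.31 and 10.18 and then 10.80, 11.04 and 10.76 in KO livers. Treated IDA livers were the lowest and treated KO livers the highest group, without overlap (interaction 1.26, SE 0.24, limma adjusted p = 0.00792), and 2 further probes gave 1.01 and 1.12, also called. H2-Eb1, a beta chain, fell from 8.77 to 8.87 down to 7.37 to 8.04 in IDA livers and was at 8.78 to 9.12 and then 8.94 to 9.04 in KO livers (interaction 1.22, SE 0.22, adjusted p = 0.00653). Without the Xist-positive livers the list's median was 1.16 and 2 calls were left, and with the authors' intensities the median was 0.69, again with 2 calls.

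Among markers of Kupffer cells and endothelium a minority had interaction calls, most of them positive. The summed linear intensity of 18 measured Kupffer cell and macrophage markers, of 22 listed, was 17321 to 23962 in untreated and 7486 to 9907 in treated IDA livers. In KO livers it was 20069 to 26281 and 14411 to 21847. Such a sum is weighted to bright genes, here the iron exporter gene Slc40a1 described below, and is no measure of the list as a whole. The list's median interaction was 0.46, against 0.03 over all features. Positive calls went to Mrc1, Slc40a1 and Vsig4 and a negative one to Spic, whose other probe gave −0.37 and was not called. Mrc1, the mannose receptor of macrophages and sinusoidal endothelium, fell from 10.72, 11.15 and 10.68 to 7.93, 7.45 and 8.24 in IDA livers and from 10.54, 11.10 and 10.77 to 9.49, 9.68 and 9.06 in KO livers. The treated groups did not overlap (interaction 1.58, SE 0.33, limma adjusted p = 0.0125). Cd163, the haemoglobin scavenger receptor, by contrast had responses of −3.88 in IDA and −3.76 in KO livers and no call. The sum of 20 endothelial markers was 6574 to 7191 in treated IDA and 10749 to 12142 in treated KO livers, with positive calls for Clec4g, Fcgr2b and Wnt2, the last at 0.33 with undetected livers at the lowest detected level. Clec4g, a lectin of sinusoidal endothelium, fell by 2.28 in IDA and by 0.93 in KO livers (interaction 1.36, adjusted p = 0.0135). All Kupffer cell and macrophage calls and the calls of Clec4g and Fcgr2b were lost without the Xist-positive livers, where Mrc1 was at 1.68 (adjusted p = 0.0623). The part of these cells in the class II result was not tested.

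Among 32 measured genes of iron and heme handling, 2 had a positive interaction call, Slc40a1 and Slc48a1, and 1 a negative one, Steap4. Calls made up 9.38% of that list, against 5.46% of all features, and its median interaction was 0.05, against 0.03. Hamp had the largest negative interaction of all named genes. Hamp, encoding hepcidin, was at 4.94, 7.88 and 8.91 in IDA livers without LPS and at 13.82, 13.77 and 13.49 with it. The KO livers were at 15.75, 15.59 and 15.76 without and 15.64, 15.59 and 15.81 with LPS. LPS thus brought IDA livers near to, but not up to, the level at which KO livers stood with and without LPS. The rise in IDA livers was 6.45 (SE 0.71), against −0.02 (SE 0.71) in KO livers, an interaction of −6.47 (SE 1.0, limma adjusted p = 0.00338), or −5.90 with undetected livers at the lowest detected level. The KO level reached 87.1% of the brightest signal on an array, which limits how much further rise could be read. Hamp2, a near copy of Hamp with its own probe, was at −2.63 in IDA and −0.90 in KO livers, and whether each probe reads only its own gene was not checked. Among 12 measured BMP-SMAD targets and regulators, Id3, a transcriptional inhibitor induced by BMP, had the other negative call (−1.56, adjusted p = 0.0365), which 7 of the 12 omissions of 1 liver and leaving out the Xist-positive livers (−1.46, adjusted p = 0.152) ended.

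Slc40a1, encoding ferroportin, the iron exporter that hepcidin degrades, stood at 13.04, 13.41 and 12.74 in untreated IDA livers and fell to 10.78, 9.90 and 10.38 with LPS. In KO livers it was at 13.10, 13.79 and 13.56 without and 12.38, 12.91 and 12.78 with LPS. Treated IDA livers were far below all other livers, by 2.34 (5.07-fold) relative to treated KO livers. The response was −2.71 in IDA and −0.79 in KO livers (adjusted p = 0.0508), an interaction of 1.92 (SE 0.36, limma adjusted p = 0.00811) that without the Xist-positive livers was 1.86 (adjusted p = 0.0599). Slc48a1, a heme transporter of macrophage lysosomes, fell by 1.36 in IDA livers and was at −0.21 in KO livers (interaction 1.15, SE 0.19, adjusted p = 0.00459). The Hamp promoter, also picked by hand with its motif, is of a gene that rose with LPS in IDA livers and did not pass in KO livers. Capitals mark the letters of a STAT site, TTCNNNGAA, 97 bases before the start. It is from RefSeq on GRCm38.p6, chr7:30943980-30944279, minus strand.
Hamp: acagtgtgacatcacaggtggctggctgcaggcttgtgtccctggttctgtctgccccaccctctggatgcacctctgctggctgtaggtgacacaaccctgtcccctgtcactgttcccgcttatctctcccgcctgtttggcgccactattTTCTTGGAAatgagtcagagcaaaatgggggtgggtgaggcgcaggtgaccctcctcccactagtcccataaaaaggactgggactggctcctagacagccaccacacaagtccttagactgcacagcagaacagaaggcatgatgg
These letters occur in 8.3% of all promoters and in 7.04% of those of the tested genes. The share was 9.03% for genes that rose in IDA livers with a smaller or no called response in KO livers.

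The list of immediate-early and AP-1 genes has 32 measured members, of which KO livers exceeded IDA livers before any LPS in 14, where 2.51% of all features differed. Single livers decided much of that count, which fell to 4 on leaving out IDA UT 3, to 5 with either IDA UT 2 or KO UT 2 left out, to 6 with KO UT 3 left out, and to 7 when the Xist-positive livers were dropped. The list's median KO minus IDA difference lay between 0.76 and 1.56 when any 1 liver was left out. These genes are switched on within minutes by growth factors and stress. Among the 32, 11 had a negative interaction call (Atf3, Ccn1, Dusp6, Gadd45a, Gadd45b, Ier3, Jun, Junb, Jund, Klf6 and Zfp36l1) and 0 a positive one (limma, also at an unadjusted p under 0.05), with a median of −1.12. KO and IDA livers differed without LPS in 10 of these 11 genes and after LPS in 7. The count ranged from 8 to 14 without any 1 liver, and it was 12 without the Xist-positive livers. In IDA livers 12 rose and 1 fell, and in KO livers 1 rose and 8 fell. Klf6, a zinc finger factor of injured liver, went up in IDA livers, from 11.14, 10.30 and 10.35 to 11.86, 12.21 and 11.82, and down in KO livers, from 11.61, 12.57 and 12.02 to 11.29, 11.36 and 10.88. Untreated KO livers overlapped with treated IDA livers, and the treated KO livers lay below both. Its responses were 1.37 (SE 0.27) and −0.89 (SE 0.27), an interaction of −2.25 (SE 0.38, limma adjusted p = 0.00483), and another probe gave −2.91. KO livers were higher by 1.47 without LPS (adjusted p = 0.0206) and at −0.79 after it (adjusted p = 0.0464).

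Gadd45a, a stress sensor of DNA damage signalling, was at 8.38, 7.86 and 6.93 in untreated IDA livers and at 9.87, 11.21 and 10.47 in untreated KO livers, which did not overlap. After LPS the IDA livers were at 10.71, 11.87 and 10.96 and the KO livers at 9.48, 9.20 and 10.14, again without overlap and in the opposite order. The interaction was −4.36 (SE 0.62, limma adjusted p = 0.00208), −3.97 to −4.69 without any 1 liver, and −3.50 on another probe. Junb, an AP-1 subunit, had responses of 2.44 in IDA and −0.43 in KO livers (interaction −2.87, adjusted p = 0.00209). Atf3, a stress-induced repressor of inflammatory genes, had a large interaction of −4.28 with an SE of 1.24 (adjusted p = 0.0481). Its untreated IDA livers spread from 5.28 to 9.55 and its untreated KO livers from 10.72 to 11.65. Leaving out 1 liver ended the Atf3 call in 10 of 12 cases, and neither of its LPS responses passed. Hspa1a, an inducible heat shock protein, was similarly spread in untreated KO livers (7.12, 10.36 and 6.74), with KO UT 2 standing apart, and lost its call in 6 of 12 omissions (interaction −4.47, with −2.57 and, not called, −0.87 on other probes).

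Of the 22 features with opposite responses, KO and IDA livers differed after LPS only in 11, in untreated livers only in 6, and in both in 5. By direction, 18 rose in IDA and fell in KO livers, with medians of 0.74 and −0.82, and 4 did the opposite. Irs2, the insulin receptor substrate of liver, rose by 1.13 in IDA and fell by 1.36 in KO livers (interaction −2.50, SE 0.61, limma adjusted p = 0.0262), a call that 6 of 12 omissions of 1 liver ended. Hilpda, a lipid droplet protein induced by hypoxia, rose by 1.30 and fell by 1.45 (interaction −2.75, SE 0.55, adjusted p = 0.0109), and without the Xist-positive livers it was at −3.21 (adjusted p = 0.0506). Ppp1r15a, which lifts the block on translation during stress, and the kinase Plk3 were also reversed, with interactions of −1.77 and −1.74. For these 4 genes KO livers were higher than IDA livers without LPS, by 1.37 to 2.07, and did not pass after LPS. Igfbp1, an insulin-suppressed binding protein of growth factors, responded in KO livers only, from 10.41, 10.52 and 10.78 to 9.64, 9.03 and 8.59, while IDA livers were at 9.41, 8.24 and 9.23 and then 9.38, 9.67 and 9.70 (interaction −2.10, SE 0.43, adjusted p = 0.0121). The interaction call of all reversed features but Irs2 held without each of the 12 livers in turn, at 21 of 22, but fewer or more features were then reversed by the class rule. Their number was 10 without KO LPS 2, 12 without KO LPS 3, 13 without IDA UT 2 or KO UT 3, 14 without IDA UT 3 or IDA LPS 1 and 35 without IDA UT 1. It was 8 with a term for the Xist-positive livers and 7 without these livers.

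Most measured endoplasmic reticulum stress genes rose in both genotypes, and 9 of them had a negative interaction call. Misfolded proteins induce chaperones through the unfolded protein response, and the integrated stress response acts through ATF4 and CHOP. Of 27 measured genes of both, 9 had a negative interaction call (Asns, Atf4, Creld2, Ddit3, Hspa5, Hyou1, Ppp1r15a, Sdf2l1 and Syvn1), 6 without the Xist-positive livers and 5 without IDA LPS 2, at a median of −0.75. In IDA livers 24 rose, and in KO livers 16 rose and 2 fell. Ddit3, encoding CHOP, was at 7.41, 7.65 and 6.84 without and 10.07, 10.33 and 10.20 with LPS in IDA livers, and at 8.42, 8.23 and 8.11 and then 8.54, 8.93 and 8.63 in KO livers. Untreated KO livers already lay above untreated IDA livers, and treated KO livers remained below treated IDA livers (responses 2.90 and 0.45; interaction −2.45, SE 0.27, limma adjusted p = 0.000656), with −1.73 on another probe. Hyou1, a chaperone of the endoplasmic reticulum, was detected in 1 of 3 untreated livers of each genotype and rose by 3.40 and 1.61, or by 2.94 and 1.09 if undetected livers take the lowest detected level (interaction −1.79, SE 0.39, adjusted p = 0.015, or −1.85). The promoter of Hspa5, encoding the chaperone BiP (interaction −1.0, adjusted p = 0.0272), is shown because it holds the endoplasmic reticulum stress element, CCAAT, any 9 bases and CCACG (capitals), 65 bases before its start; it is from RefSeq on GRCm38.p6, chr2:34771840-34772139, plus strand.
Hspa5: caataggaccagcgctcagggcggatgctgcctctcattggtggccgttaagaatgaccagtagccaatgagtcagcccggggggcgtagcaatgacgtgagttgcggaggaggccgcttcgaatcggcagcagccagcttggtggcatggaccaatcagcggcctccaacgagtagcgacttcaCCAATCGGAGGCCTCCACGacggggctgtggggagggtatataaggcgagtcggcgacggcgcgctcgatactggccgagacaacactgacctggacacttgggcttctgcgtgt
This element occurs in 4 of the 277 promoters (1.44%) of genes that rose in IDA livers with a smaller or no called response in KO livers. It occurs in 0.119% of all promoters and in 0.144% of those of the tested genes.

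Most measured bile acid genes fell in IDA livers, and 4 fell less or did not pass in KO livers with an interaction call. Of 26 measured, 4 had a positive interaction call (Cyp7a1, Cyp8b1, Nr1i3 and Slc10a1) and 0 a negative one (limma; 1 at an unadjusted p under 0.05), at a median of 0.47. In IDA livers 19 fell and in KO livers 9. Cyp7a1, which catalyses the slowest step from cholesterol to bile acids, had the largest interaction of all features. It was at 13.66, 13.33 and 14.21 in untreated IDA livers and at 6.92, 5.49 and 5.05 after LPS, when it was detected in 1 of 3. In KO livers it was at 12.44, 12.56 and 10.94 without and 12.28, 12.28 and 10.43 with LPS. Treated IDA livers stood far below all others, whereas the KO groups overlapped. The fall in IDA livers came to 132-fold with undetected livers at the lowest detected level of their array, and the response in KO livers was −0.31 (SE 0.61, adjusted p = 0.768), an interaction of 7.60 (SE 0.86, limma adjusted p = 0.000683). Cyp8b1, which sets the share of cholic acid, fell from 14.29, 14.84 and 14.82 to 12.45, 12.02 and 12.15 in IDA livers and had 14.26, 13.25 and 13.98 and then 13.76, 13.58 and 13.26 in KO livers (interaction 2.14, SE 0.35, adjusted p = 0.00429). Slc10a1, the bile acid uptake carrier, was at −1.89 in IDA and −0.03 in KO livers (interaction 1.86, adjusted p = 0.00156). Nr1i3, the nuclear receptor CAR, fell by 2.91 and by 0.95 (interaction 1.97, SE 0.29, adjusted p = 0.00282).

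The other metabolic lists differed in their share of calls, from 0% (drug-metabolizing P450 genes) to 25.8% (glucose output and insulin response) of measured members. The share was 15.4% for the bile acid list and 5.46% over all features. Drug-metabolizing P450 genes had 0 among 33 measured, although 15 fell in IDA and 5 in KO livers (medians −0.57 and −0.36), and at an adjusted p under 0.05 alone in limma they also had 0, with 2, both positive, at an unadjusted p under 0.05. Phase II enzymes had 2 positive calls among 33, Sult1c2 and Ugt2b35. Of 31 genes of glucose output and insulin response 4 had a positive call (G6pc, Pdk2, Ppp1r3g and Slc2a2) and 4 a negative one (Foxo3, Igfbp1, Irs2 and Trib1), with a median of 0.11. G6pc, encoding the last enzyme of glucose release, fell from 12.89, 12.47 and 12.92 to 9.28, 9.77 and 10.13 in IDA livers and had 13.19, 13.23 and 13.54 and then 13.52, 12.22 and 11.74 in KO livers. The treated groups did not overlap (interaction 2.21, SE 0.53, limma adjusted p = 0.0225), but without the Xist-positive livers the call was lost (1.92, adjusted p = 0.181). Slc2a2, the glucose transporter of hepatocytes, fell by 3.28 and by 1.30 (interaction 1.98, adjusted p = 0.000835). Ppp1r3g, a glycogen-targeting subunit, had 3.14 on the probe used and 1.15 on another, which was not called.

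PPAR-alpha targets had 3 positive calls among 26, Acot3, G0s2 and Plin5, of which 0 passed without the Xist-positive livers, where their ratios were 2.18, 2.30 and 0.94 against 2.13, 2.13 and 1.03 with them. G0s2, an inhibitor of adipose triglyceride lipase, was at 10.13, 10.65 and 9.29 in treated IDA and at 13.21, 12.08 and 12.46 in treated KO livers, with responses of −1.13 and 1.0 (interaction 2.13, SE 0.49, limma adjusted p = 0.02). Usp2, a deubiquitinase under circadian control, fell from 12.05, 12.19 and 12.09 to 8.70, 7.86 and 8.13 in IDA livers and from 11.83, 11.41 and 11.06 to 10.48, 10.10 and 10.32 in KO livers. The fall was 14.7-fold in IDA and 2.20-fold in KO livers (interaction 2.74, SE 0.32, adjusted p = 0.00077), and 2 other probes gave 1.30, called, and 1.08 (adjusted p = 0.073), not called. Tk1, thymidine kinase of the nucleotide salvage pathway, fell by 3.00 and by 1.47 (interaction 1.52, SE 0.23, adjusted p = 0.003), but another probe gave 0.45 (adjusted p = 0.575), which was not called. Prss8, the membrane protease prostasin, was at 7.11, 7.49 and 6.98 in treated IDA livers and at 8.12 to 8.62 in all other livers. Its interaction was 1.14 (SE 0.22, limma adjusted p = 0.00908), or 0.87 without the Xist-positive livers. Another probe of the gene gave 2.29 (limma adjusted p = 0.000661), also called.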

How the data were processed

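Liver RNA of 12 mice, 1 array each, was read on Illumina MouseWG-6 v2 BeadChips with GenomeStudio (version not given in the sources used here). The authors deposited raw probe intensities and a detection p-value per probe and array, without background correction, and a second table of intensities that they normalized by cubic spline, used as an alternative. The chip of each array is not given in those sources. From the raw values, neqc in limma 3.58.1 (R 4.3.3) made background-corrected, quantile-normalized log2 intensities (offset 16). Of 45281 probes, 34885 had 1 gene symbol in the platform annotation, 18 several (left out) and 10378 none, and 16286 were detected at p under 0.01 on 1 or more arrays and entered the comparison. The probe with the highest mean stood for each symbol. A linear model with 4 group means (8 residual degrees of freedom), empirical Bayes moderation and Benjamini-Hochberg adjustment over all 11566 features gave each contrast, and the steps were tested on simulated data. Nothing in the labels says whether livers came from separate litters or days, so p-values measure only the spread between these mice.

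Genes were named by rule: the 10 largest interactions in each direction, the 6 largest of each response class among genes detected in at least 9 livers, the 3 largest called genes of each of 36 gene lists, the genes the study names in its account of the interaction, and checks of labels and tissue. Of the study's genes Gdf15 was not measured here. Values for Icam1, Vcam1, S100a8, S100a9, Cd163, Hamp2, Junb, Hspa5, Slc10a1 and Slc2a2 fall outside this rule and were chosen after their values were seen, and other called members of the lists are named without values. Members and lists were chosen with earlier results of these data known, and some lists hold genes that the study named from the same livers, so their counts are no independent evidence. Same-numbered livers of different groups did not deviate together (median correlation 0.0315 over 18 pairs, 3 of them over 0.1), so the numbers were not used as a block in the reported results. Promoters were matched by symbol to RefSeq tables (7581 of 9307 named genes). Further motifs of transcription factors were searched in the same way, and their shares are not given. In genes that rose in IDA livers with a smaller or no called response in KO livers, AP-1, CRE and D-box motifs were more frequent than over tested genes. CArG, C/EBP and E-box motifs were less frequent there. Alternatives covered normalization, filters, probes, moderation, array weights, a replicate block, each liver left out and the Xist-positive livers.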

Additional observations from a re-analysis of the deposited data

Results flagged for a closer look

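The LPS response differed between KO and IDA livers, by the interaction term in limma, in 632 features, which is why this count appears here. Among the 22 with responses of opposite sign in the 2 genotypes, 7 are genes that the naming rule picks. Gbp2b, whose fall in IDA livers rests on undetected values, had an interaction of 6.06, with every treated KO liver above every other liver. Rtn4rl1, a receptor of the Nogo receptor family, had one of 2.00, with a response of −1.05 in IDA livers and 0.96 in KO livers, and without the Xist-positive livers it was 1.53 (adjusted p = 0.133). The other 5 rose in IDA and fell in KO livers. Hilpda stood at −2.75, Irs2 at −2.50, Klf6 at −2.25, Ppp1r15a at −1.77 and Plk3 at −1.74. Whether any single liver lay apart from the other 2 of its group was not tested.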

How the results depend on the processing

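Every gene named by the rule kept the sign of its interaction under each alternative, except Eif2s3y, which had no call and went from 1.21 to −0.48 without the Xist-positive livers and −0.36 with a term for them (2178 results on the same side of both thresholds, 331 no longer called, 1 newly called). Counts of calls moved more. The count was 632 (297 positive, 335 negative) as reported, 327 (115 and 212) with the deposited normalized intensities, 326 (118 and 208) without background correction, 329 (163 and 166) with probes detected on all 12 arrays, 1267 (632 and 635) with no fold threshold, and 122 (46 and 76) when tested against a log2 ratio of 0.5. That last test left 97.5% of calls with the smaller response in KO livers. Leaving out each liver in turn gave 498 to 690 calls (232 to 321 positive, 266 to 369 negative), 89.7% to 93.7% with the smaller response in KO livers and 77.5% to 87.7% that differed after LPS only, against 82.1% as reported. The count that differed in untreated livers only, 59, ranged from 18 (without KO UT 2) to 74 (without IDA UT 1), and that of reversed features, 22, from 10 (without KO LPS 2) to 35 (without IDA UT 1). The share that differed after LPS only was 78.2% with array weights and 85.4% with a term for the 3 Xist-positive livers. The term, chosen after seeing the data, gave 649 calls, and leaving these livers out gave 474 (209 and 265). With the replicate number as a block the fit gave 606 calls, 588 of them among the reported 632, and the sign of every gene named by the rule was kept. Of 87 named genes with a call, 65 kept it without each liver in turn, 58 without the Xist-positive livers and 66 with the deposited intensities. With undetected livers at the lowest detected level 491 calls were left. The causes of these shifts were not tested.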

Other observations

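Lists for liver functions outside those described above had interaction calls in 0% to 14.3% of their measured members, against 5.46% of all features. All but 4 of these calls were positive. With so few members, 0 calls in a list does not set it apart from the share over all features. Of 32 measured complement and coagulation genes 2 were called, F8 (coagulation factor VIII) and Klkb1 (plasma prekallikrein), both of which fell less in KO livers or did not pass there. Klkb1 had responses of −1.87 in IDA and −0.71 in KO livers (interaction 1.17, SE 0.16, limma adjusted p = 0.00183). Among 28 genes of cholesterol synthesis and lipogenesis, Idi1 and Sc5d had positive calls, but 10 of the 12 omissions of 1 liver ended that of Idi1. Sc5d, which makes a late step of cholesterol synthesis, was at −1.32 in IDA and −0.16 in KO livers (interaction 1.15, SE 0.19, limma adjusted p = 0.00405). Of 31 genes of the extracellular matrix 2 had negative calls, Adamts1, whose other probe gave −0.09 and was not called, and the neutrophil-borne gelatinase Mmp9. Of 21 genes of the cell cycle, Tk1 had a positive call and Cdkn1a, encoding the inhibitor p21, and Plk3 negative ones. Of 12 stellate cell markers 1 was called, Colec11, and of 14 clock genes 2, Dbp and Usp2, all positive. Plasma proteins that fall in the acute phase had 0 calls among 17 (3 at an unadjusted p under 0.05 in limma, all positive), and the markers of lymphocytes (3 measured), erythroid cells (6) and cholangiocytes (1) had 0 (1 erythroid and 1 cholangiocyte marker at an unadjusted p under 0.05). The 21 male-biased liver genes had 0 calls in limma (2 at an unadjusted p under 0.05), and the 14 female-biased ones had 1, Acot3.

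Several of the largest positive interactions belonged to genes outside all lists. Nrep was at log2 means of 10.41 (SD 0.54, n = 3) in untreated IDA, 5.70 (SD 0.68) in treated IDA, 10.36 (SD 0.68) in untreated KO and 8.81 (SD 0.41) in treated KO livers. It was not detected in treated IDA livers, where it was at least 4.62-fold lower than in treated KO livers (interaction 3.16, SE 0.58, limma adjusted p = 0.007, or 2.26 with undetected livers at the lowest detected level). Dclk3, a doublecortin-like kinase, was also undetected in treated IDA livers and at least 5.52-fold lower there than in treated KO livers (interaction 2.69, adjusted p = 0.00298, or 2.28). Tmem25, Pcp4l1, Olfml1 and Rsph4a were detected in all 12 livers, with interactions of 2.86, 2.30, 2.23 and 2.25, but other probes of Tmem25 gave 1.22 and 0.39, the last not called (adjusted p = 0.323), and another of Pcp4l1 gave 1.57. Each of these 4 fell in IDA livers and did not pass in KO livers. The calls of Nrep (2.43, adjusted p = 0.0513) and Rsph4a (1.45, adjusted p = 0.183) were lost when the Xist-positive livers were left out.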
